A study of Mus musculus with 6 samples.

Results

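The genes described here are 9 ligands and receptors of the tumour necrosis factor (TNF) superfamily in mouse lungs that carried tumour cells: the ligands Tnf, Tnfsf10 (TRAIL), Fasl (Fas ligand), Tnfsf9 (4-1BBL) and Tnfsf13b (BAFF), and the receptors Fas, Tnfrsf9 (4-1BB), Cd40 and Tnfrsf13c (BAFF receptor). They were chosen by name, with earlier results of these data known. Their symbols were matched to Ensembl gene identifiers, and all 9 were found among the 35275 gene rows. Lungs of Balb/c mice given 4T1 cells that lacked PD-L1 (KO, 3 libraries) were compared with lungs of Balb/c mice given wild-type 4T1 cells (WT, 3 libraries). 4T1 cells come from a Balb/c mammary tumour and spread readily to lung. All mice received 250000 cells into the tail vein, and the lungs were taken 7 days later after perfusion with 20 mL of PBS. The mice themselves are not labelled as edited, so KO and WT name the injected tumour cells, and every host cell keeps its own Cd274, the PD-L1 gene. The labels name 1 KO line, and neither its clonality nor the age and sex of the mice was stated in the labels. The comparison addresses how lung RNA of these genes differs when the tumour cells lack PD-L1.

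TNF superfamily ligands are trimeric proteins, made at the cell surface and in some cases shed, that bind receptors of the TNF receptor superfamily. Receptors with a death domain, such as Fas, the TRAIL receptor and TNF receptor 1, can recruit FADD and caspase-8 and start apoptosis, while receptors without one, such as CD40, 4-1BB and the BAFF receptor, recruit TRAF adaptors and activate NF-kB, which favours survival and activation. In lung, these genes are mainly known from macrophages, T cells, NK cells, dendritic cells and B cells, with Fas and the TNF receptors also on epithelium and endothelium.

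Libraries held 14711459 to 16932114 counts, and the surfactant gene Sftpc averaged 7783 ± 1063 CPM (counts relative to the TMM-scaled library size) in KO lungs and 7846 ± 481 CPM in WT lungs (SD, n = 3 each). Cd274 had 97.4, 197 and 301 CPM in KO lungs, against 62.6, 53.6 and 74.3 CPM in WT lungs, all KO libraries being above all WT libraries, with a log2 fold change of 1.65 that did not pass (edgeR adjusted p = 0.161), so whole-lung RNA does not check the loss of the gene in the tumour cells. Of 15191 genes tested, 1.45% were called (edgeR quasi-likelihood test, adjusted p below 0.05), 1.12% as higher and 0.336% as lower in KO lungs. In bulk RNA, more cells of a type and more RNA per cell cannot be told apart.

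None of the 9 genes passed the test over all genes (edgeR quasi-likelihood test with Benjamini-Hochberg adjustment), in either direction, beside the 1.45% called over all genes. At an unadjusted p below 0.05 there were 2, Tnfsf10 and Tnfrsf13c, or 22.2% of the members, where 14.6% of all genes fell below that value. DESeq2 and limma-voom also called 0. All 9 passed the filter on low counts, so none was lost to low expression. Their log2 fold changes were positive in 8 (88.9%, beside 50.95% of all genes) and negative in 1, Fasl, with a median of 0.39 beside 0.007 over all genes tested. The KO libraries lay above all WT libraries in 3 of the 9 (Tnf, Tnfsf9 and Tnfrsf13c), beside 10.3% of all genes, and below them in 0, beside 9.40% of all genes. Because the members were chosen with earlier results known, these shares describe the 9 genes and not the family. Of 33 tested family genes that are not members, 20 (60.6%) had positive log2 fold changes, with a median of 0.058. Of these 33, 4 (12.1%) had an unadjusted p below 0.05 by edgeR. Since the labels do not state that each library came from 1 mouse, the p-values reflect the spread among libraries, which may be technical.

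**Figure D1:**
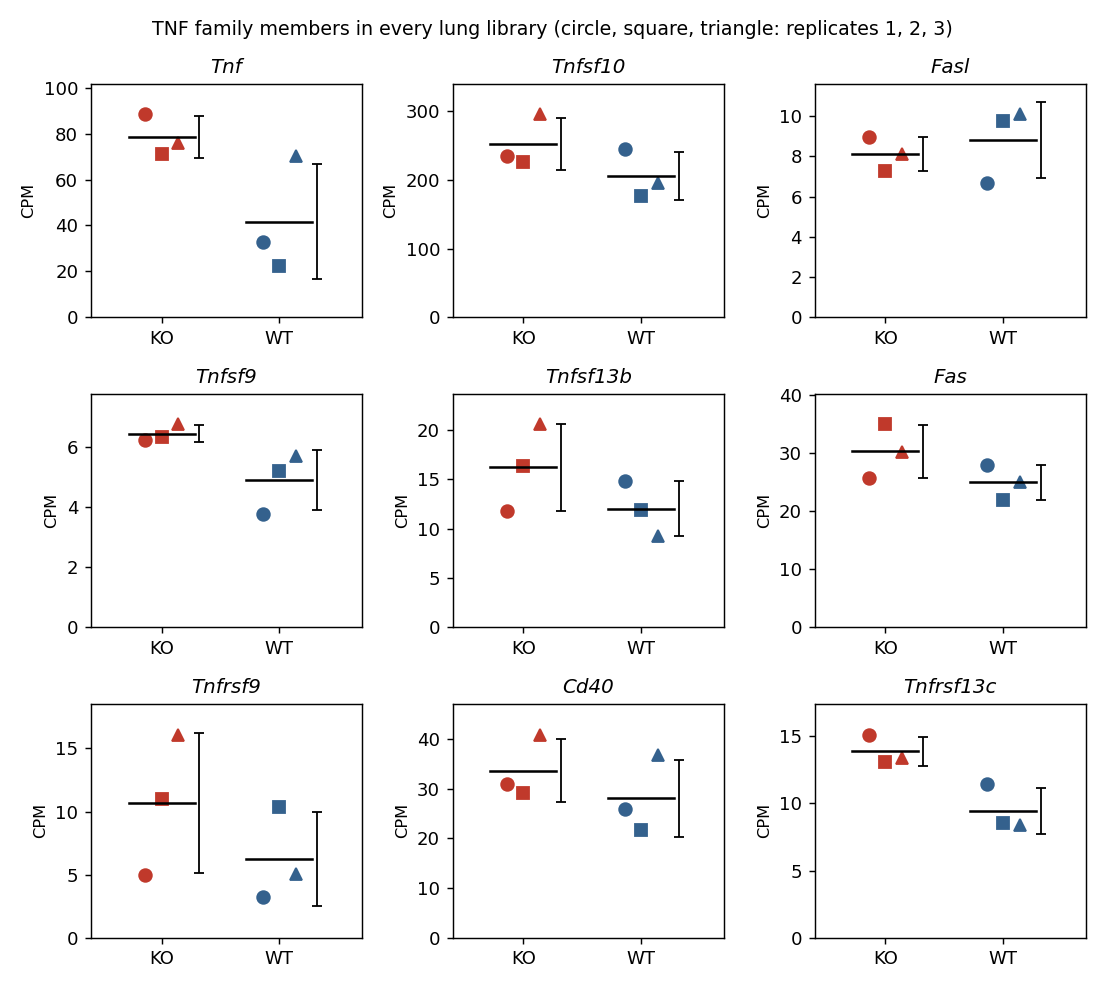
CPM (vertical axis, from 0) of each of the 9 genes in the 3 KO and the 3 WT lung libraries; horizontal bars are group means, error bars are SD, and circles, squares and triangles are replicates 1, 2 and 3. The KO and WT points are separate for Tnf, Tnfsf9 and Tnfrsf13c, and for Tnf the WT replicate 3 point, at 70.2 CPM, lies next to the KO points while WT replicates 1 and 2 lie at 32.7 and 22.2 CPM.

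Tnf (ENSMUSG00000024401, chromosome 17, 35199381 to 35202007, minus strand, GRCm38) encodes the inflammatory cytokine TNF, made largely by macrophages and activated T cells. It had 88.6, 71.0 and 76.1 CPM in KO replicates 1 to 3, against 32.7, 22.2 and 70.2 CPM in WT replicates 1 to 3. The groups did not overlap, but the gap between them was under 1 CPM, because WT replicate 3 stood at the level of the KO lungs. Tnf averaged 78.5 ± 9.05 CPM in KO lungs and 41.7 ± 25.2 CPM in WT lungs (SD, n = 3 each). KO over WT, the log2 fold change was 0.92 ± 0.41 (SE; 95% interval −0.08 to 1.91), and it did not pass (edgeR adjusted p = 0.38). The highest WT library was 3.16 times the lowest, while the highest KO library was 1.25 times the lowest. Without WT replicate 3 the log2 fold change was 1.52 and passed (edgeR adjusted p = 0.00404), and with any 1 of the other 5 libraries left out it lay between 0.61 and 0.98 and did not pass. Cxcl2, a neutrophil-attracting chemokine gene named after its values were seen, had 213, 188 and 170 CPM in KO lungs, against 108, 101 and 209 CPM in WT lungs, with WT replicate 3 again at the level of the KO lungs. Cxcl1 and Il6, also named after their values were seen, did not share this. Cxcl1 had 78.8, 88.9 and 79.0 CPM in KO lungs, against 48.9, 75.7 and 56.8 CPM in WT lungs. Il6 had 24.3, 38.5 and 27.7 CPM in KO lungs, against 18.8, 18.8 and 21.1 CPM in WT lungs. In both, WT replicate 3 lay below every KO library. The 9 alveolar macrophage markers summed to 785, 929 and 717 CPM in KO lungs, against 626, 516 and 857 CPM in WT lungs, with WT replicate 3 the highest of its group. The same held for the monocyte and macrophage and the pan-leukocyte sums, but not for the B cell, T cell, NK cell, neutrophil or dendritic cell sums. Tnf came to 11.3%, 7.64% and 10.6% of the alveolar macrophage sum in KO lungs, against 5.22%, 4.30% and 8.19% in WT lungs, with overlap. None of the 9 alveolar macrophage markers was called or at 0, and their part in the Tnf result was not tested.

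Tnf lies between Ltb (lymphotoxin beta, a membrane ligand of T and B cells) and Lta (lymphotoxin alpha) on chromosome 17, with 3060 bases between Ltb and Tnf and 1157 bases between Tnf and Lta. Ltb (ENSMUSG00000024399, 35194439 to 35196320, plus strand) is not among the 9, and it was the 1 ligand of the family that was called higher. It had 35.2, 36.6 and 41.8 CPM in KO lungs, against 16.7, 19.1 and 22.2 CPM in WT lungs, and the libraries of each group lay close together. The log2 fold change of Ltb was 0.97 ± 0.16 (SE), near that of Tnf but with a much smaller error (edgeR adjusted p = 0.0144). The call for Ltb was lost without KO replicate 2 or 3 or WT replicate 1 or 2, at adjusted p of 0.0675, 0.0663, 0.0848 and 0.0788, where the log2 fold change stayed between 0.87 and 0.99. Ltb came to 12.8%, 10.1% and 10.6% of the summed T cell markers in KO lungs, against 8.89%, 6.25% and 9.59% in WT lungs, and these shares did not overlap. Of the summed B cell markers it came to 12.2%, 16.7% and 15.7% in KO lungs, against 7.68%, 14.7% and 13.9% in WT lungs, with overlap. Lta, with 2 to 12 counts in every KO library and 3 to 11 in every WT library, was below the filter. In WT lungs the SD was 60.5% of the mean for Tnf and 14.2% for Ltb, and in KO lungs 11.5% and 9.2%. The start regions of Tnf and Ltb are shown as those of neighbours with similar fold changes (RefSeq, GRCm38.p6, 250 bases before to 50 after the start, read along the gene). A link of these sequences to level or spread was not tested. Capitals mark matches to GGGNNNNNCC, the outline of the NF-kB motif, or to TTCNNNGAA, the gamma-interferon activation site bound by STAT dimers, on either strand.

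Tnf promoter, chr17:35201958-35202257, minus strand: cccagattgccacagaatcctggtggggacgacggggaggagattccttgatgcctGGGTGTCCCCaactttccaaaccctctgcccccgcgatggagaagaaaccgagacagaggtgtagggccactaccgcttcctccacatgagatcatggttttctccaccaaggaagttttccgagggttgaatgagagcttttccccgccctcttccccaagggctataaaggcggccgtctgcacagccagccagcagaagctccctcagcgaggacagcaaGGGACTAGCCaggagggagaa

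Ltb promoter, chr17:35194257-35194556, plus strand: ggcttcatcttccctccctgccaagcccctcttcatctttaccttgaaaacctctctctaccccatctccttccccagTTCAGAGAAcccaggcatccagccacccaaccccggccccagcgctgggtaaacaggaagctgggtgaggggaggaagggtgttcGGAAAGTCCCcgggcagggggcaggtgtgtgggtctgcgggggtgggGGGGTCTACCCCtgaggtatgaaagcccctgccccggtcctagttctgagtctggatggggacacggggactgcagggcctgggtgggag

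The Tnf window held 2 NF-kB outlines, the first beginning 194 bases before the start and the second 29 bases after it. The Ltb window held 4, of which 3 overlap one another from 40 to 38 bases before the start, and 1 TTCNNNGAA match beginning 172 bases before it. The NF-kB outline occurs in 50.8% of 32851 promoters of the same length, and TTCNNNGAA in 8.30%. These are letter matches in the C57BL/6J reference, not binding data. Of the 9 genes, 7 had an entry among these promoters. Cd40 and Tnfsf9 are named only.

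Tnfsf10 (ENSMUSG00000039304, chromosome 3, 27317028 to 27342427, plus strand) encodes TRAIL, a death ligand that NK cells, T cells and macrophages can display and that interferons induce. It was the most abundant of the 9 in counts, with 234, 226 and 296 CPM in KO lungs, against 245, 176 and 195 CPM in WT lungs. The groups overlapped, since WT replicate 1 lay above KO replicates 1 and 2. Its log2 fold change was 0.30 ± 0.14 (SE; 95% interval 0.002 to 0.59), with an unadjusted p of 0.0489, and it did not pass over all genes (edgeR adjusted p = 0.339). The smallest log2 fold change among 14 interferon-induced genes, a list chosen with earlier results known, was 0.61 for Irf9. The 95% interval of Irf9, 0.323 to 0.895, overlapped that of Tnfsf10, and a difference between them was not tested.

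Fasl (ENSMUSG00000000817, chromosome 1, 161780689 to 161788495, minus strand) encodes Fas ligand, the death ligand of cytotoxic T cells and NK cells. It had 8.95, 7.27 and 8.11 CPM in KO lungs, against 6.67, 9.75 and 10.1 CPM in WT lungs, and the KO values lay within the WT range. Between the groups the log2 fold change was −0.13 ± 0.26 (SE; 95% interval −0.68 to 0.43; edgeR adjusted p = 0.878), which holds falls and rises of moderate size. The 7 NK cell markers summed to 176 to 184 CPM in KO lungs and 103 to 232 CPM in WT lungs, and none of them was called by edgeR or at an unadjusted p below 0.05.

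Tnfsf9 (ENSMUSG00000035678, chromosome 17, 57105325 to 57107757, plus strand) encodes 4-1BBL, which antigen-presenting cells use to costimulate T cells. It had 6.24, 6.36 and 6.77 CPM in KO lungs, against 3.78, 5.23 and 5.71 CPM in WT lungs. The groups did not overlap, WT replicate 3 came within 1 CPM of the KO lungs, and the log2 fold change of 0.39 ± 0.30 (SE; 95% interval −0.25 to 1.03) did not pass (edgeR adjusted p = 0.589). Of the 1290 exonic bases of Tnfsf9, 192 overlap Gm11110 on the opposite strand, and no strand setting of the counting was stated, so some of these reads may belong to the partner. At 97 to 111 counts per KO library and 55 to 89 per WT library, the counting error is part of this spread.

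Tnfsf13b (ENSMUSG00000031497, chromosome 8, 10006467 to 10039072, plus strand) encodes BAFF, the survival factor of mature B cells, made by myeloid and stromal cells and induced by interferons. It had 11.8, 16.3 and 20.5 CPM in KO lungs, against 14.8, 11.9 and 9.25 CPM in WT lungs. KO replicates 2 and 3 lay above all WT libraries, and KO replicate 1 lay below WT replicates 1 and 2. Tnfsf13b had a log2 fold change of 0.43 ± 0.25 (SE; 95% interval −0.10 to 0.97; edgeR adjusted p = 0.455). It was the 1 member with an IRF motif pair, GAAANNGAAA on either strand, in a start window. This match, in capitals below, begins 16 bases before the second of its listed starts. That pair occurs in 3.44% of all promoters, and the window is shown as the only such match among the 9 listed promoters of 7 members.

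Tnfsf13b promoter, second start, chr8:10006383-10006682, plus strand: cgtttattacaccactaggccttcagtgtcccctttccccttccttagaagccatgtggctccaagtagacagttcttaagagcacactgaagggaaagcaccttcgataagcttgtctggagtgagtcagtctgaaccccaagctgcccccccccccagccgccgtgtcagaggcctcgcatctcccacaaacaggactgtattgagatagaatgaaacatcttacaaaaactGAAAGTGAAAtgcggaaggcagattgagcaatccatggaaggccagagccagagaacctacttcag

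Fas (ENSMUSG00000024778, chromosome 19, 34290666 to 34327772, plus strand) encodes the death receptor that binds Fas ligand. It had 25.8, 35.0 and 30.3 CPM in KO lungs, against 27.98, 21.9 and 25.1 CPM in WT lungs. The groups overlapped through KO replicate 1 and WT replicate 1. Fas had a log2 fold change of 0.28 ± 0.17 (SE; 95% interval −0.08 to 0.64; edgeR adjusted p = 0.476). Neither side of the Fas and Fas ligand pair therefore passed. Their estimates had opposite signs, but the 95% interval of each held both rises and falls.

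Tnfrsf9 (ENSMUSG00000028965, chromosome 4, 150914562 to 150946102, plus strand) encodes 4-1BB, a costimulatory receptor that T cells and NK cells express after activation. It had 4.96, 11.01 and 16.1 CPM in KO lungs, against 3.23, 10.4 and 5.05 CPM in WT lungs. Its values spread more than 3-fold inside each group (3.25-fold in KO lungs and 3.22-fold in WT lungs), and the groups overlapped. The log2 fold change of 0.77 ± 0.46 (SE; 95% interval −0.23 to 1.77) did not pass (edgeR adjusted p = 0.483), and with 1 library left out it ranged from 0.35 without KO replicate 3 to 1.36 without WT replicate 2. The sum of the 12 T cell markers, with 0 called by edgeR and none at 0, ranked the libraries of each group in the same order as Tnfrsf9. Single markers did not all follow that order, Cd3d in KO lungs and Cd247 in WT lungs among them. Of these markers 4 (33.3%) had an unadjusted p below 0.05, beside 14.6% of all genes. The 12 markers summed to 274, 364 and 395 CPM in KO lungs, against 188, 306 and 231 CPM in WT lungs. Tnfrsf9 came to 1.81%, 3.03% and 4.08% of that sum in KO lungs, against 1.72%, 3.40% and 2.18% in WT lungs, and these shares overlapped as well. The part of these markers in the Tnfrsf9 result was not tested.

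Cd40 (ENSMUSG00000017652, chromosome 2, 165055627 to 165072948, plus strand) encodes the receptor through which helper T cells activate B cells, dendritic cells and macrophages. It had 30.9, 29.1 and 40.8 CPM in KO lungs, against 25.9, 21.7 and 36.7 CPM in WT lungs. WT replicate 3 lay above KO replicates 1 and 2, as the highest of its group for Cd40 as it was for Tnf. The log2 fold change was 0.26 ± 0.20 (SE; 95% interval −0.17 to 0.69; edgeR adjusted p = 0.599).

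Tnfrsf13c (ENSMUSG00000068105, chromosome 15, 82221743 to 82224369, minus strand) encodes the BAFF receptor, which is largely restricted to B cells. It had 15.1, 13.1 and 13.4 CPM in KO lungs, against 11.4, 8.51 and 8.40 CPM in WT lungs, and the groups did not overlap. The log2 fold change was 0.56 ± 0.22 (SE; 95% interval 0.08 to 1.03), the smallest unadjusted p of the 9 (0.0251), and it did not pass over all genes (edgeR adjusted p = 0.256). The 10 B cell markers summed to 289, 219 and 267 CPM in KO lungs, against 217, 130 and 159 CPM in WT lungs and none of the 10 was called or at 0. Of these markers 7 (70.0%) had an unadjusted p below 0.05, beside 14.6% of all genes, and the median log2 fold change of the 10 was 0.61. Set against that sum, Tnfrsf13c came to 5.24%, 5.98% and 5.03% in KO lungs, against 5.25%, 6.57% and 5.27% in WT lungs. These shares overlapped, unlike the CPM values, and the part of the B cell markers in the Tnfrsf13c result was not tested. Cd40 came to 10.7%, 13.3% and 15.3% of the same sum in KO lungs, against 11.9%, 16.7% and 23.0% in WT lungs, also with overlap.

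**Figure D2:**
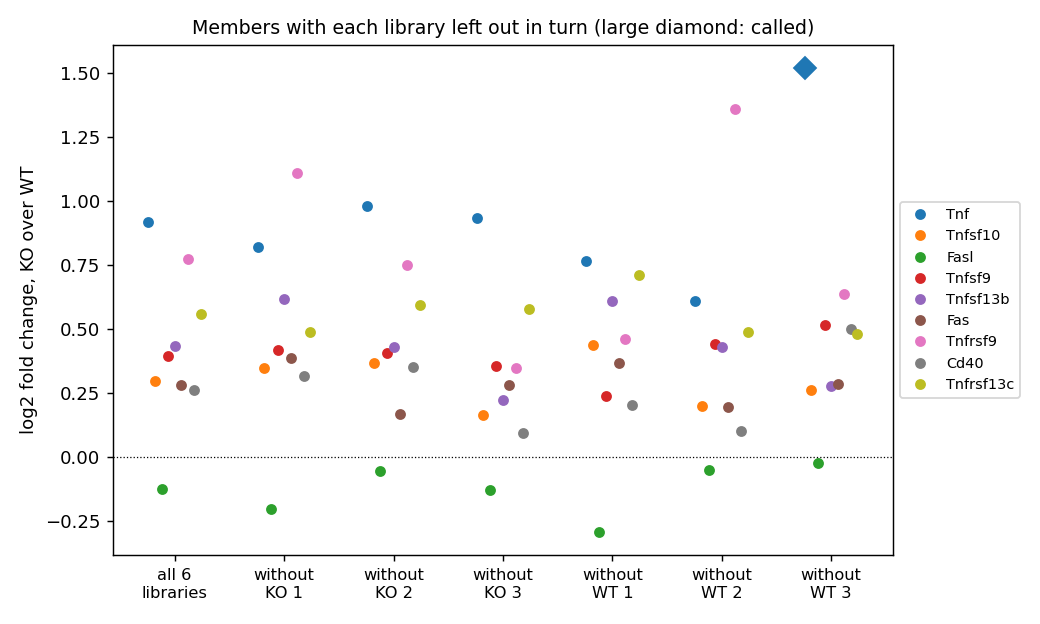
Log2 fold change (vertical axis, KO over WT) of each of the 9 genes with all 6 libraries and with each library left out in turn (horizontal axis); a large diamond marks a value that passed the edgeR test. The single diamond is Tnf without WT replicate 3, at 1.52, and Fasl is the single gene below 0 in every fit shown.

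Levels between genes were compared per kb of exon. In KO lungs the order was Tnf (47.9 ± 5.52 CPM per kb) and Tnfsf10 (47.9 ± 7.24), then Fas (14.7 ± 2.23), Cd40 (9.87 ± 1.86), Tnfrsf13c (6.78 ± 0.532), Tnfsf9 (5.004 ± 0.214), Fasl (4.19 ± 0.432), Tnfrsf9 (3.93 ± 2.05) and Tnfsf13b (2.36 ± 0.639) (SD, n = 3). Among neighbours in that order, the library ranges overlapped for Tnf and Tnfsf10, Fasl and Tnfrsf9, and Tnfrsf9 and Tnfsf13b. In WT lungs Tnfsf10 came first at 39.0 ± 6.70 CPM per kb, and Tnf was second at 25.4 ± 15.4. Cd40 and Tnfrsf13c, at 8.25 ± 2.27 and 4.61 ± 0.833, were the only neighbours in that order whose ranges did not overlap each other. Tnf ranged from 43.3 to 54.0 CPM per kb in KO lungs and from 13.5 to 42.8 CPM per kb in WT lungs. Tnfsf13b, with 6868 exonic bases, was last in both groups per kb, although its mean CPM was above those of Tnfsf9 and Fasl.

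**Figure D3:**
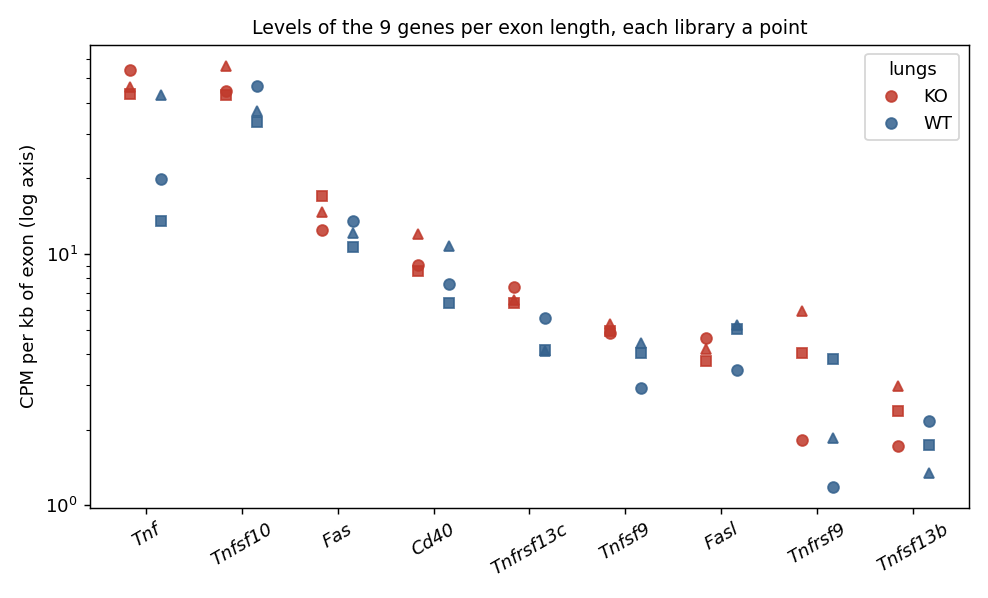
CPM per kb of exon (vertical log axis) of the 9 genes, ordered by their mean in KO lungs; each point is 1 library (red KO, blue WT; circles, squares and triangles are replicates 1, 2 and 3). Tnf and Tnfsf10 have the highest means in both groups, with libraries between 13.5 and 56.2 CPM per kb, and Tnfsf13b is lowest by mean in both.

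Of 8 ligands and receptors of the family that bind the members or share their partners, 7 were tested and none passed (edgeR). The TNF receptor genes Tnfrsf1a and Tnfrsf1b had 191 ± 5.35 and 235 ± 54.5 CPM in KO lungs, against 175 ± 17.5 and 198 ± 35.3 CPM in WT lungs (SD, n = 3 each), with log2 fold changes of 0.13 and 0.25 (edgeR adjusted p = 0.624 and 0.548). The TRAIL receptor gene Tnfrsf10b (38.5 ± 7.06 CPM in KO lungs and 33.2 ± 5.41 CPM in WT lungs) had a log2 fold change of 0.21, and Tnfrsf11b, the soluble decoy osteoprotegerin, one of −0.14. For Tnfrsf13b, the TACI receptor of BAFF and APRIL, the log2 fold change was 0.44 ± 0.25 (SE; edgeR adjusted p = 0.455), close to that of its ligand gene Tnfsf13b. Tnfsf13, the APRIL gene, was at 0.18. Cd40lg, the ligand of CD40, had 1.45 ± 0.504 CPM in KO lungs and 1.45 ± 0.842 CPM in WT lungs, and its 95% interval of −1.45 to 1.43 leaves a change of more than 2-fold either way within reach. Tnfrsf17, the plasma cell receptor BCMA, was below the filter, with 11, 18 and 0 counts in KO lungs, against 0, 8 and 0 counts in WT lungs.

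**Figure D4:**
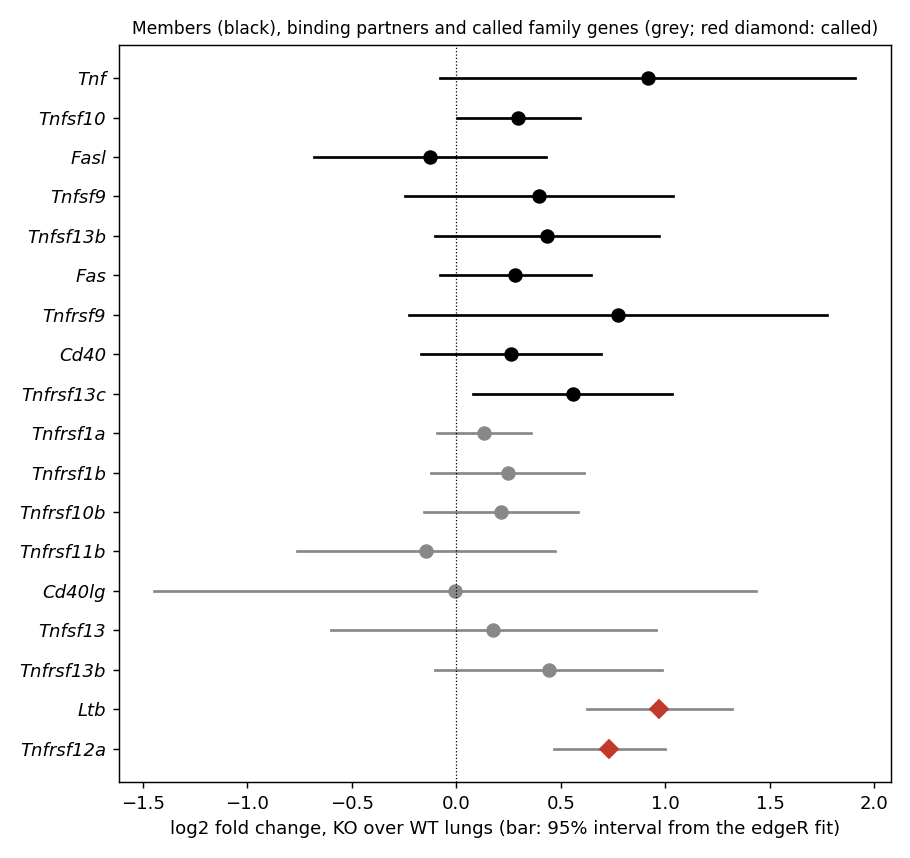
Log2 fold change of KO over WT lungs (horizontal axis) with its 95% interval from the edgeR fit, for the 9 genes (black), their binding partners and the 2 family genes that passed (grey bars). The red diamonds, Ltb at 0.97 and Tnfrsf12a at 0.73, are the genes that passed, and the intervals of Tnf and Tnfrsf9 are the widest among the black bars.

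In the whole family, 1 of 16 tested ligands and 1 of 26 tested receptors were called higher and 0 lower, beside 1.12% higher and 0.336% lower over all genes. A further 2 ligands and 2 receptors were below the filter. Log2 fold changes were positive in 10 of the 16 ligands and 18 of the 26 receptors, beside 50.95% of all genes. The highest were 2.10 among ligands and 0.99 among receptors, and neither was called. The medians of the log2 fold changes were 0.30 for ligands and 0.15 for receptors. These counts and medians include the 9 members. Without the members, 20 of 33 tested family genes (60.6%) were positive, with a median log2 fold change of 0.058. The receptor called higher was Tnfrsf12a (ENSMUSG00000023905, chromosome 17, 23675445 to 23677468), which encodes Fn14, the receptor of TWEAK on injured epithelium, endothelium and stroma. It had 57.0, 59.7 and 58.7 CPM in KO lungs, against 36.0, 33.4 and 36.2 CPM in WT lungs. Both groups were tight and far apart, with a log2 fold change of 0.73 ± 0.12 (SE; edgeR adjusted p = 0.0144). Its call was lost without KO replicate 2 or 3 or WT replicate 1 or 2, at adjusted p of 0.0855, 0.0509, 0.0676 and 0.0857, with the log2 fold change between 0.70 and 0.74.

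Downstream of the receptors, 2 of 25 genes of death receptor signalling and apoptosis were called higher and none lower by edgeR, beside 1.12% and 0.336% of all genes. The other 23 did not pass (median log2 fold change 0.14). Bak1, which encodes a pore-forming protein of the outer mitochondrial membrane, had 32.7, 39.8 and 49.3 CPM in KO lungs, against 23.3, 21.96 and 25.9 CPM in WT lungs, a log2 fold change of 0.78 ± 0.17 (SE; edgeR adjusted p = 0.0406). Daxx, which encodes a Fas-binding protein that also acts as a histone chaperone, had 52.9, 73.5 and 73.9 CPM in KO lungs, against 38.2, 39.0 and 46.3 CPM in WT lungs, a log2 fold change of 0.70 ± 0.15 (SE; edgeR adjusted p = 0.0402). Without KO replicate 2 or 3 or WT replicate 1 or 2 neither call held (adjusted p of 0.147 to 0.206 for Daxx and 0.153 to 0.179 for Bak1), with log2 fold changes of 0.61 to 0.66 for Daxx and 0.61 to 0.79 for Bak1. Bak1 also missed without WT replicate 3 (adjusted p = 0.0539, log2 fold change 0.84) and by limma-voom (adjusted p = 0.0505, log2 fold change 0.77). In this list 17 of 25 log2 fold changes (68.0%) were positive, beside 50.95% of all genes, and 6 (24.0%) had an unadjusted p below 0.05, beside 14.6%.

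None of 22 TRAF and NF-kB signalling genes was called by edgeR, and none was called higher by DESeq2 or limma-voom. Their median log2 fold change was 0.09, and 5 (22.7%) had an unadjusted p below 0.05, beside 14.6% of all genes. The smallest p-values were those of Traf1, an adaptor of 4-1BB and CD40 signalling (log2 fold change 0.48 ± 0.14, edgeR adjusted p = 0.125), and Tank, a TRAF-binding regulator (0.54 ± 0.19, edgeR adjusted p = 0.184). Of 21 tested NF-kB-induced and feedback genes 1 rose, Tnfaip2, and 20 did not pass, with a median of 0.22. In this list 17 of 21 log2 fold changes (80.95%) were positive, beside 50.95% of all genes. An unadjusted p below 0.05 was found for 6 of the 21 (28.6%), beside 14.6% of all genes. For 7 of the 21 the lowest KO value exceeded the highest WT value, a separation seen in 10.3% of all genes. Tnfaip2, a TNF-induced gene of endothelial and myeloid cells, had 328, 478 and 478 CPM in KO lungs, against 154, 186 and 255 CPM in WT lungs (log2 fold change 1.11 ± 0.19, edgeR adjusted p = 0.0179). Its call was lost without KO replicate 2 or 3 or WT replicate 1 or 2, at adjusted p of 0.0948, 0.12, 0.0687 and 0.116, where the log2 fold change was 1.02, 1.02, 0.96 and 1.06. Of 7 genes that shed or cleave TNF family proteins, 0 were called by edgeR, 0 were called higher by DESeq2 or limma-voom, and 1 had an unadjusted p below 0.05, Rhbdf1 (−0.36 ± 0.13). The sheddase gene Adam17, which releases TNF, had 131 ± 8.62 CPM in KO lungs and 130 ± 15.6 CPM in WT lungs (SD, n = 3 each).

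Interferon-induced genes are given beside the members because interferons can induce several of them, and the list was chosen with earlier results of these data known. Of 14 such genes, 12 were called higher by edgeR, beside 1.12% of all genes, with a median log2 fold change of 1.36 and a lowest value of 0.61. Of the members that interferons can induce, Tnfsf10, Tnfsf13b, Fas and Cd40 had log2 fold changes of 0.30, 0.43, 0.28 and 0.26. The upper ends of their 95% intervals were 0.59, 0.97, 0.64 and 0.69. These fold changes lie below the lowest value of the list, but that value depends on the choice of genes and sets no bar for the members. The count of 12 fell to 3 without KO replicate 2, to 5 without WT replicate 1 or 2 and to 8 without KO replicate 3 or WT replicate 3, and was 14 without KO replicate 1. Whether the members differ from these genes was not tested.

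**Figure D5:**
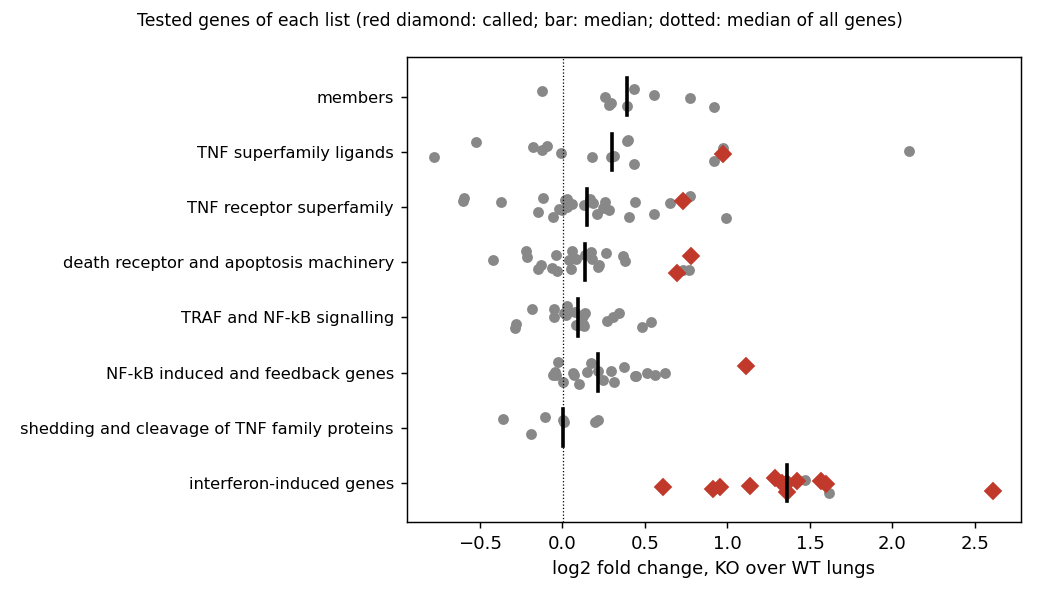
Log2 fold change of KO over WT lungs (horizontal axis) of every tested gene in the 9 members and in 7 lists; red diamonds are genes that passed the edgeR test, black bars are list medians and the dotted line is the median of all genes tested. The members lie between −0.13 and 0.92 with a median of 0.39 and no diamond, and the interferon-induced genes lie between 0.61 and 2.61 with 12 diamonds.

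Several leukocyte marker lists held genes called higher in KO lungs and the platelet, endothelial and fibroblast lists genes called lower. Over all genes, 1.12% were called higher and 0.336% lower. The part of these lists in the members' values was not tested. The 7 pan-leukocyte genes summed to 1817 to 2372 CPM in KO lungs and 1411 to 1812 CPM in WT lungs, with 3 of 7 called higher. The 10 monocyte and macrophage markers summed to 593 to 879 CPM in KO lungs and 461 to 574 CPM in WT lungs, with 3 of 10 called higher and none at 0. In both lists every KO library lay above every WT library. The 9 neutrophil markers summed to 316 to 483 CPM in KO lungs and 163 to 269 CPM in WT lungs, with 2 of 7 tested called higher, 5 of the 7 positive and 2 negative. Of the 2 neutrophil markers below the filter, Ly6g had 4, 14 and 26 counts in KO lungs, against 0 in every WT library, and Camp had 14, 0 and 0 counts in KO lungs, against 0, 23 and 0 counts in WT lungs. The 9 dendritic cell markers summed to 237 to 312 CPM in KO lungs and 210 to 249 CPM in WT lungs, with none called. Tnf came to 14.9%, 8.39% and 8.66% of the monocyte and macrophage sum in KO lungs, against 7.09%, 4.29% and 12.2% in WT lungs, and Tnfsf13b to 1.99%, 1.93% and 2.34% in KO lungs, against 3.22%, 2.30% and 1.61% in WT lungs. Both sets of shares overlapped. Tnfsf10 came to 12.9%, 9.54% and 12.6% of the pan-leukocyte sum in KO lungs, against 17.3%, 10.1% and 10.8% in WT lungs, Fas to 1.42%, 1.48% and 1.29% in KO lungs, against 1.98%, 1.25% and 1.38% in WT lungs, and both overlapped too. The 8 tumour and keratin genes summed to 446 to 495 CPM in KO lungs and 391 to 450 CPM in WT lungs, with none called, and lung epithelium also expresses several of them. Genes called lower were found in 3 lists. The 5 platelet markers summed to 13.3 to 25.3 CPM in KO lungs and 46.7 to 71.5 CPM in WT lungs, all 5 were negative and 1 was called lower. The 8 endothelial markers summed to 5416 to 6672 CPM in KO lungs and 6251 to 7416 CPM in WT lungs, with overlap, 7 of 8 negative and 1 called lower. The 6 fibroblast markers summed to 2407 to 3355 CPM in KO lungs and 3176 to 3638 CPM in WT lungs, with overlap, 4 of 6 negative and 1 called lower. None of the platelet, endothelial or fibroblast markers was at 0 in a group.

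The genes whose levels moved most like each member over the 6 libraries were found by the root mean square distance between centred log2(CPM + 1) values, among 12603 named genes with a mean log2 CPM of at least 1. The nearest gene was Rnf114 for Fas (distance 0.0218), Tmem176a for Tnfsf10 (0.029), Dlg4 for Fasl (0.0404), Usb1 for Tnfsf9 (0.041), Mrto4 for Tnfrsf13c (0.0569), Cenpn for Cd40 (0.0626), Rfc5 for Tnfsf13b (0.0655), Atp5k for Tnf (0.101) and Nrg1 for Tnfrsf9 (0.217). Second came Siva1, Tceal9, Pla2g6, Slc25a37, Ctif, Mkks, Ifit3b, Selenbp2 and Il1f9 in the same order, at 0.0436 to 0.263. With 6 libraries and so many candidates, a close match to any pattern is easily found, and these distances are given as a description.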

How the data were processed

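Whole-lung RNA of 6 libraries (3 KO, 3 WT) was analysed from the authors' deposited counts per Ensembl gene. Per the submitters' processing notes, STAR 2.5 and HTSeq 0.6.1 gave these counts on mm10, also named GRCm38. No source stated the annotation release or strand setting. Symbols, positions and exonic lengths came from GENCODE M21 by Ensembl identifier (785 of 35275 rows had no symbol).

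Genes were tested as KO minus WT over 15191 genes with edgeR 4.0.16 in R 4.3.3 (TMM; genes kept by filterByExpr, minimum count 10; robust quasi-likelihood fit; group as the only term), with Benjamini-Hochberg adjustment and a threshold of 0.05. The SE was taken as the absolute log2 fold change over the root of the F statistic. Tests were two-sided. A count of 0 allows, at 3 counts, up to 0.176 to 0.206 CPM, and covers counting error only. No 2 libraries were identical (chi-square per degree of freedom 14.7 to 51.8).

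The members and lists were chosen with earlier results of these data known. The rule named the members and their partners and family genes that passed. In other lists it named up to 5 that passed or the 2 with the smallest p. It also named the nearest 2 genes per member, Cd274 and the 2 most abundant genes of marker lists. Further genes in the text (Irf9, Adam17, Lta, Ly6g, Camp, Cd3d, Cd247, Cxcl1, Il6 and Cxcl2) were added after their values were seen. Alternatives were other scalings and filters, DESeq2 1.42.0, limma-voom (limma 3.58.1), robust=FALSE, each replicate left out, the replicate number as a block and thresholds of 0.1 and 0.01. On simulated counts for the same 15191 genes with 200 changed, the test called 33.1% at a 1.5-fold change, 70.4% at 2-fold and 87.3% at 3-fold, and 6.21% of calls were false.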

Additional observations from a re-analysis of the deposited data

How the results depend on the processing

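For the 9 members, 151 of 153 values under the alternatives kept their direction and their side of the threshold; both exceptions were Tnf, which passed without WT replicate 3 and without the filter on low counts (log2 fold change 0.92, adjusted p = 3.51e-08). The unfiltered fit gave all 21769 genes an infinite prior degree of freedom, so no gene kept a spread of its own, and it called 578 genes higher and 225 lower, against 170 and 51. Members called were 1 without the filter and 0 to 1 with a replicate left out. Over all genes, higher and lower calls were 367 and 231 by DESeq2, 315 and 160 at a threshold of 0.1, 23 and 2 at 0.01, and 22 to 404 and 2 to 174 with a replicate left out. With the replicate block they were 309 and 96, and no member was called; same-numbered libraries had correlations of their deviations of 0.05, 0.02 and 0.03, and 3 of 6 libraries correlated best with their own number, so they were not treated as pairs.

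Ligands called higher were 2 without the filter, 0 at 0.01 and 0 to 2 with a replicate left out, and receptors 0 at 0.01 and 0 to 1. Apoptosis genes called higher were 1 by limma-voom, 0 at 0.01 and 0 to 2 with a replicate left out, and TRAF and NF-kB signalling genes 2 without the filter. NF-kB-induced genes called higher were 6 without the filter, 2 by DESeq2, with the replicate block and at 0.1, 0 at 0.01, and 0 to 4 with a replicate left out. Interferon-induced genes called higher were 4 at 0.01 and 3 to 14 with a replicate left out. The cause of these differences was not tested, beyond the prior named above.

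Signs turned, with no call, for Cd40lg (0.0441 by limma-voom, 0.084 with the replicate block, and −0.329 to 0.573 with a replicate left out, being above 0 without KO replicate 1, KO replicate 3 or WT replicate 2), Tnfrsf11b (−0.378 to 0.131 with a replicate left out, above 0 without WT replicate 1) and Tnfsf13 (−0.044 to 0.299, below 0 without WT replicate 2). Changes below 2-fold were often missed at this depth and number of libraries on simulated counts, so a member that did not pass may still differ by its interval.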
